A study of Homo sapiens with 4 samples.

Results

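The genes that decide whether a cell leaves G1 for S phase were read in a human renal carcinoma line. They were taken from the gene table by symbol: the D cyclins CCND1 and CCND3, their kinases CDK4 and CDK6, the E cyclins CCNE1 and CCNE2 with their kinase CDK2, the retinoblastoma gene RB1, the transcription factor gene E2F1, and CDKN1B, the gene of the CDK inhibitor p27. All 10 symbols were found among 57820 genes, each in 1 row. All libraries came from 786-0 cells, an established line of clear cell renal carcinoma origin, kept in serum-supplemented DMEM and starved of amino acids for 12 h. A control hairpin labelled shNT was used for 2 libraries, and a hairpin labelled shGLUD1, against the gene of glutamate dehydrogenase, for the other 2. Starvation was thus shared by both groups, and cells with amino acids are not part of the comparison. Nothing in the labels shows whether duplicates are separate cultures or whether a hairpin line is 1 clone, so the spread behind each p-value may be technical.

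In G1, D cyclins bind CDK4 or CDK6 and the kinases phosphorylate the RB1 protein, which otherwise holds E2F factors inactive. Freed E2F factors switch on E cyclins and the genes of DNA synthesis, and cyclin E with CDK2 completes RB1 phosphorylation. CDKN1B restrains cyclin E-CDK2, and amino acid shortage and loss of growth factors are classical conditions under which cells stop in G1. In clear cell renal carcinoma without VHL function, CCND1 is a known target of HIF-2alpha, the product of EPAS1.

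On TPM, a level scaled by transcript length and by the library's total, 7 of these genes rose in the libraries labelled shGLUD1 and none fell. CDK2 rose most, with a mean 5.59 times that of shNT, followed on the same ratio by CDKN1B (3.56), RB1 (3.28), CCND1 (2.72), CCND3 (2.60), CCNE1 (1.85) and E2F1 (1.83). CDK4, CDK6 and CCNE2 did not pass the test. In bulk RNA, more cells in a phase of the cycle and more transcript per cell cannot be told apart. Among all 12524 genes tested, 56.7% were called higher and 7.77% lower by limma at a Benjamini-Hochberg adjusted p under 0.05, so 7 of 10 is to be read against a background in which most genes rose. Both shGLUD1 libraries lay above both shNT libraries for 9 of the 10 genes, against 69.9% of all genes tested, and only CDK6 had overlapping groups. All 10 passed the filter of a mean of 1 TPM, RB1 only through its shGLUD1 libraries.

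TPM of the typical gene was itself higher in shGLUD1, by a median of 0.63 on the log2(TPM + 1) scale, and each change is therefore also given after dividing by median-ratio factors, called rescaled below. That centres the typical gene near 0, and a rescaled value says how a gene moved relative to the others. After rescaling 4 of the 10, CCND1, CCND3, CDK2 and CDKN1B, were still called higher (22.7% of all genes were), and 1, CDK4, was called lower (28.4% of all genes were). Quantile normalization called 5 higher, the same 4 and E2F1, and 0 lower (23.5% and 22.1% of all genes). With trends in transcript length and GC content removed, the same 5 were higher and CDK4 lower (22.7% and 23.1%). The median change of the 10 was 0.87 on TPM and 0.29 rescaled, beside 0.63 and -0.014 for all genes tested. Cytosolic ribosomal protein genes took 32.01% and 32.48% of TPM in shNT but 23.66% and 21.57% in shGLUD1. With these genes left out of the totals, 7 of the 10 were called higher, beside 6166 of the 13305 genes then tested (1407 were lower). The median change was then 0.79 for the 10 and 0.49 for all genes tested, so TPM of the typical gene was still higher. TPM add up to the same total in every library, so this is a shift in shares and does not show more RNA per cell.

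The targeted transcript GLUD1 was at 18.1 and 17.4 TPM with the control hairpin, against 13.5 and 19.8 TPM with shGLUD1, and the TPM difference did not pass (log2 fold change -0.11, limma adjusted p = 0.631). TPM of shGLUD1 replicate 2 was above both controls. GLUD1 shares 464 exonic bases with SHLD2 on the opposite strand, at 3.18 and 3.22 TPM with the control hairpin, against 5.04 and 6.65 TPM with shGLUD1. The part of SHLD2 in the GLUD1 values was not tested. Divided by the median-ratio factors, GLUD1 was at 23.63 and 22.43 for shNT and at 11.02 and 13.91 for shGLUD1, lower in both libraries. That rescaled change of -0.84 passed (adjusted p = 0.00201), as did -0.75 with quantile normalization (adjusted p = 0.00757) and -0.89 with length and GC trends removed (adjusted p = 0.00313). Whether the targeted transcript was lower thus depended on the scaling, and the libraries are named by label throughout.

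Libraries of a group were close to each other, with Pearson r across genes of 0.989 within shNT and 0.985 within shGLUD1, where genes are not independent replicates. Of 6 genes typical of renal carcinoma cells, 4 (PAX8, VIM, EPAS1 and CA12) were above 1 TPM in every library, whereas PAX2 was at most 0.12 TPM and CDH6 at most 0.01 TPM. VIM supplied most of their summed level, at 950.5 and 910.9 TPM with the control hairpin, against 2941 and 3805 TPM with shGLUD1. Markers of blood, endothelium and liver (PTPRC, CD3E, VWF and ALB) did not exceed 0.05 TPM, and CD68, which many cultured lines express, was at 146 to 241 TPM. No gene was listed under the symbol PECAM1, so it was not analysed here.

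The RefSeq promoter table (GRCh38.p14) held an entry for 7 of the 10 genes, CCND3, CDK4, CDK6, CCNE1, RB1, E2F1 and CDKN1B, and not for CCND1, CCNE2 and CDK2. In the 250 bases before each listed start, 3 motifs were searched on both strands. They were the E2F motif (TTTCCCGC, TTTCGCGC, TTTGCCGC or TTTGGCGC), the E-box CACGTG bound by MYC and its relatives, and the CCAAT box bound by NF-Y. The promoters of 3 genes are printed 5′ to 3′ to show matches to each motif beside genes with unlike changes. Capitals mark the E2F matches in E2F1, the E-boxes in CDK4 and the CCAAT boxes in CDKN1B.
E2F1, chr20:33686386-33686635, minus strand: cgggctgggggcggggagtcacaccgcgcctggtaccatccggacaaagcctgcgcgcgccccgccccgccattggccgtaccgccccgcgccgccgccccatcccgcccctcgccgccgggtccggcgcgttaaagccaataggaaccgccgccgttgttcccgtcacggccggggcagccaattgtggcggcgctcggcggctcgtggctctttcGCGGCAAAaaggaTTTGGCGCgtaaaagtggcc
CDK4, chr12:57752311-57752560, minus strand: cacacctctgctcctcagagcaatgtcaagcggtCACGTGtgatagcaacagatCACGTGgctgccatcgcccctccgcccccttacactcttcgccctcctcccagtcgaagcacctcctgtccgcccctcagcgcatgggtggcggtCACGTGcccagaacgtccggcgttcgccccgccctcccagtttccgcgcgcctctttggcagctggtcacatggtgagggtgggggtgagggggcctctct
CDKN1B, chr12:12717118-12717367, plus strand: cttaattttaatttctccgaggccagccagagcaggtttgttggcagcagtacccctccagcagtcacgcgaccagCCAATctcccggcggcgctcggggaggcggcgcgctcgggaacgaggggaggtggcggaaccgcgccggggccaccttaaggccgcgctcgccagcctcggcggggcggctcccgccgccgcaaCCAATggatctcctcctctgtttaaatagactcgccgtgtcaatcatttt

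The E2F1 window held 2 E2F matches, whose first bases lay 33 and 20 bases before the start, and 3 CCAAT boxes left in lower case. The CDK4 window held 3 E-boxes, first bases 216, 196 and 101 before the start, and neither other motif. The CDKN1B window held 2 CCAAT boxes, 174 and 50 before the start. No matches overlapped each other. Of 35116 windows in the table, 2.79% held an E2F match, 6.34% an E-box and 32% a CCAAT box. Among the other windows of these genes, 2 of the 3 listed CCND3 starts held 1 CCAAT box each, and no match was found in those of CDK6, CCNE1 and RB1. A listed start need not be the gene's first. That of RB1 lies 172724 bases inside the GENCODE gene, and the CCND3 starts with a CCAAT box lie 108549 and 111152 bases inside, so these windows do not show the promoter at the 5′ end. The CDK4 and CDKN1B starts lie 3703 and 2310 bases inside their genes, and that of E2F1 lies 19. A match is a description of letters and not of binding.

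**Figure D1:**
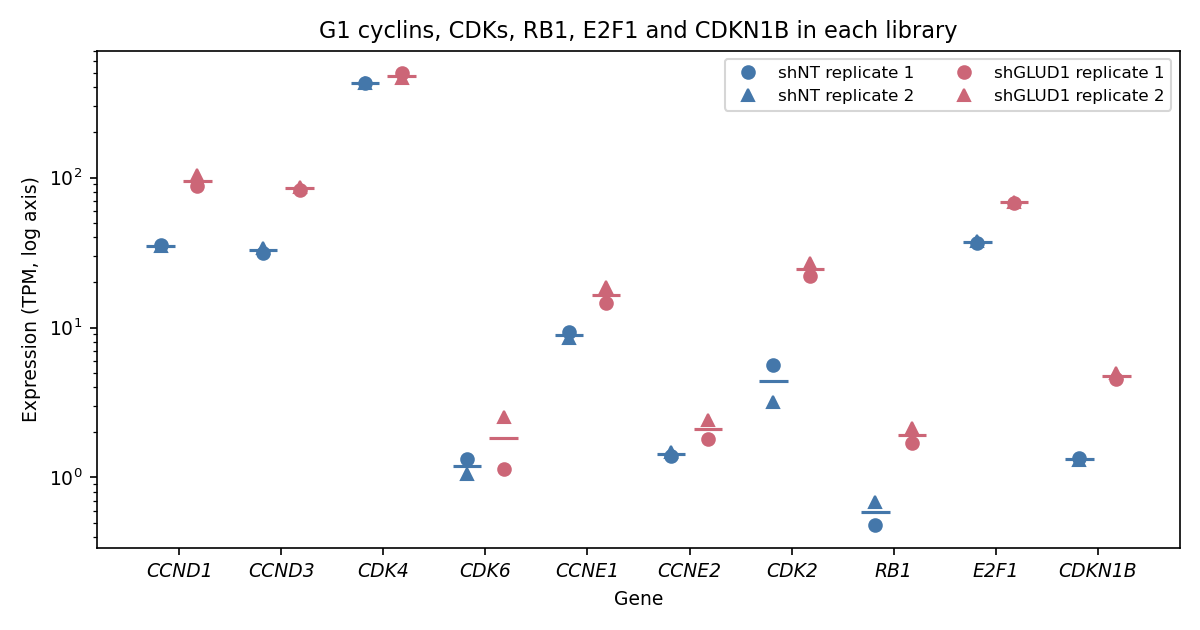
Expression in TPM (log axis) of the 10 genes in each library, with shNT in blue and shGLUD1 in red, circles for replicate 1, triangles for replicate 2 and lines for the mean of 2 libraries. The shGLUD1 points lie above the shNT points for every gene except CDK6, and CDK4, at 430 to 496 TPM, stands far above the rest.

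The D cyclins rose together. CCND1 (ENSG00000110092, GRCh38 chromosome 11, 69641087 to 69654474, plus strand), the cyclin most often raised in cancers, was at 35.3 and 34.9 TPM with the control hairpin, against 87.3 and 103.5 TPM with shGLUD1. Both shGLUD1 libraries were clearly higher and the groups did not overlap. Its log2 fold change on TPM + 1 was 1.41 (SE 0.13, limma adjusted p = 1.3e-05), and the rescaled value was 0.65 (SE 0.11, adjusted p = 0.00175). CCND3 (ENSG00000112576, chromosome 6, 41934933 to 42050357, minus strand), which serves the same kinases, was at 31.3 and 34.1 TPM with the control hairpin, against 82.8 and 87.0 TPM with shGLUD1. Its groups were also apart, with a log2 fold change of 1.35 (SE 0.12, adjusted p = 1.2e-05) and a rescaled value of 0.59 (adjusted p = 0.00377).

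The third D cyclin gene, CCND2, was at most 0.14 TPM in any library and fell below the filter. CCND1 therefore made up 53.0% and 50.6% of D cyclin TPM in shNT and 51.3% and 54.3% in shGLUD1, so the balance of CCND1 and CCND3 overlapped between groups (difference 0.98 percentage points; two-sided exact permutation p = 0.667, adjusted p = 0.800). CCND1 shares 497 exonic bases with LTO1 on the opposite strand, at 21.95 to 31.18 TPM, and whether reads were counted by strand is not given in the sources used here.

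Neither kinase of the D cyclins passed the test on TPM. CDK4 (ENSG00000135446, chromosome 12, 57747727 to 57756013, minus strand) was the most abundant of the 10 genes, at 430.5 TPM in both shNT libraries and at 496 and 463 TPM in shGLUD1. The shGLUD1 libraries were slightly higher, without overlap, but the log2 fold change of 0.15 (95% interval -0.041 to 0.35, limma adjusted p = 0.145) did not pass. Relative to the typical gene CDK4 was lower, with a rescaled value of -0.62 (95% interval -0.95 to -0.29, adjusted p = 0.00715). It was also lower with trends in transcript length and GC content removed (-0.30, adjusted p = 0.0382), but not under quantile normalization (0.15, adjusted p = 0.164). Its exons share 1369 bases with TSPAN31 on the opposite strand, at 20.0 to 26.8 TPM.

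CDK6 (ENSG00000105810, chromosome 7, 92604921 to 92836594, minus strand), the sister kinase, was low, at 1.33 and 1.05 TPM with the control hairpin, against 1.13 and 2.55 TPM with shGLUD1. One shGLUD1 library lay inside the shNT range and the other above it. The log2 fold change was 0.33 (95% interval -0.31 to 0.98, limma adjusted p = 0.335). It was 0.70 (adjusted p = 0.0445) without shGLUD1 replicate 1 and -0.037 (adjusted p = 0.903) without replicate 2, so 1 library decided it. The rescaled value was -0.13. CDK4 held 99.7% and 99.8% of the summed CDK4 and CDK6 TPM in shNT and 99.8% and 99.5% in shGLUD1 (exact permutation p = 1).

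Of the E cyclins, CCNE1 rose on TPM and CCNE2 did not pass. CCNE1 (ENSG00000105173, chromosome 19, 29811898 to 29824308, plus strand), the main partner of CDK2 at S phase entry, was at 9.35 and 8.5 TPM with the control hairpin, against 14.5 and 18.6 TPM with shGLUD1. The groups were apart and the log2 fold change came to 0.81 with an SE of 0.19 (limma adjusted p = 0.0032). The rescaled value of 0.095 (95% interval -0.24 to 0.43, adjusted p = 0.607) did not pass, so CCNE1 was not distinguishable from the typical gene.

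CCNE2 (ENSG00000175305, chromosome 8, 94879770 to 94896678, minus strand) was at 1.39 and 1.48 TPM with the control hairpin, against 1.81 and 2.42 TPM with shGLUD1. Its groups did not overlap, but the log2 fold change of 0.35 (95% interval -0.20 to 0.90, limma adjusted p = 0.236) did not pass, and the rescaled value was -0.15. CCNE2 shares 1629 exonic bases with INTS8, an Integrator complex subunit gene on the opposite strand, which was at 1.82 and 2.38 TPM with the control hairpin, against 8.17 and 12.2 TPM with shGLUD1. INTS8 rose by a log2 fold change of 1.83 (limma adjusted p = 0.000139); its part in the CCNE2 values was not tested. CCNE1 held 87.1% and 85.2% of the summed E cyclin TPM in shNT and 88.9% and 88.5% in shGLUD1 (exact permutation p = 0.333, adjusted p = 0.5). The difference of 2.58 points came to 1.63 without shNT replicate 2.

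CDK2 had the highest fold change of the 10. The gene (ENSG00000123374, chromosome 12, 55966769 to 55972784, plus strand), the kinase of cyclins E and A, was at 5.60 and 3.20 TPM with the control hairpin, against 22.02 and 27.13 TPM with shGLUD1. The shNT libraries differed from each other, but both lay far below shGLUD1. The log2 fold change came to 2.27 with an SE of 0.23 (limma adjusted p = 2.7e-05), and 85 of the 12524 genes tested (0.679%) had a larger one. The rescaled value was 1.58 (95% interval 1.07 to 2.08, adjusted p = 0.000667). PMEL, which shares 89 exonic bases with CDK2 on the opposite strand, was at most 1.61 TPM.

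RB1, the brake of the pathway, was scarce but higher in shGLUD1. The gene (ENSG00000139687, chromosome 13, 48303726 to 48599436, plus strand) was at 0.48 and 0.69 TPM with the control hairpin, against 1.70 and 2.14 TPM with shGLUD1. The log2 fold change came to 0.88 with an SE of 0.25 (limma adjusted p = 0.0102), a scale that understates low genes. Having passed the filter only through shGLUD1, RB1 had to differ between the groups. The call was lost without shNT replicate 1 (0.78, adjusted p = 0.092), without shGLUD1 replicate 2 the gene fell below the filter, and the rescaled value of 0.48 (adjusted p = 0.0982) did not pass.

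The related pocket protein genes RBL1 (p107) and RBL2 (p130) were scarce too and rose. Like RB1, both had a shNT mean under 1 TPM and passed the filter only or mainly through shGLUD1, so the filter favoured a rise. RBL1 was at 0.44 and 0.33 TPM with the control hairpin, against 2.37 and 3.27 TPM with shGLUD1 (log2 fold change 1.45, rescaled 1.05). RBL2 stood at 0.88 and 1.02 TPM with shNT and at 4.10 and 5.49 TPM in shGLUD1 (1.56, rescaled 1.04). RB1 made up 26.7% and 33.8% of the summed pocket protein TPM in shNT and 20.8% and 19.6% in shGLUD1, a difference of -10.0 percentage points without overlap (exact permutation p = 0.333, adjusted p = 0.5). It was -6.45 points without shNT replicate 2 and -13.6 without shNT replicate 1. The shNT share rests on transcripts under or near 1 TPM, so no fall of it can be concluded from these values. For such shares and ratios, 2 libraries against 2 cannot give an exact two-sided p below 0.333.

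E2F1 (ENSG00000101412, chromosome 20, 33675683 to 33686404, minus strand), whose promoter with its E2F matches is printed above, was at 36.8 and 37.9 TPM with the control hairpin, against 68.1 and 68.5 TPM with shGLUD1. The libraries of each group were nearly equal and the groups were far apart. The log2 fold change came to 0.85 with an SE of 0.12 (limma adjusted p = 0.000143). The rescaled value of 0.092 (95% interval -0.19 to 0.37, adjusted p = 0.55) did not pass, while the values under quantile normalization (0.41, adjusted p = 0.019) and with length and GC trends removed (0.46, adjusted p = 0.00587) did. Among the activating E2F genes, E2F1 held 99.0% of TPM in both shNT libraries and 95.3% and 94.4% in shGLUD1. E2F2 was at 0.19 and 0.15 TPM with the control hairpin, against 2.35 and 2.52 TPM with shGLUD1 (log2 fold change 1.55, rescaled 1.22, shNT mean under the 1 TPM of the filter), and E2F3 was at 0.18 and 0.22 against 1.00 and 1.57 TPM.

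CDKN1B (ENSG00000111276, chromosome 12, 12715058 to 12722371, plus strand), the CDK inhibitor p27, rose on TPM, as CCND1, CCND3 and CDK2 did. It was at 1.35 and 1.31 TPM with the control hairpin, against 4.53 and 4.94 TPM with shGLUD1, with wide separation between tight groups. The log2 fold change came to 1.30 with an SE of 0.24 (limma adjusted p = 0.000785) and the rescaled value 0.75 (SE 0.19, adjusted p = 0.0112). The rescaled call was lost without shGLUD1 replicate 1 (0.71, adjusted p = 0.0561). CDKN1A, the gene of p21, was far more abundant, at 91.0 and 88.1 TPM with the control hairpin, against 162 and 174 TPM with shGLUD1 (0.90, rescaled 0.13), and CDKN1C was at most 0.14 TPM. CDKN1B was thus 1.46% of CIP/KIP inhibitor TPM in both shNT libraries and 2.71% and 2.76% in shGLUD1.

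**Figure D2:**
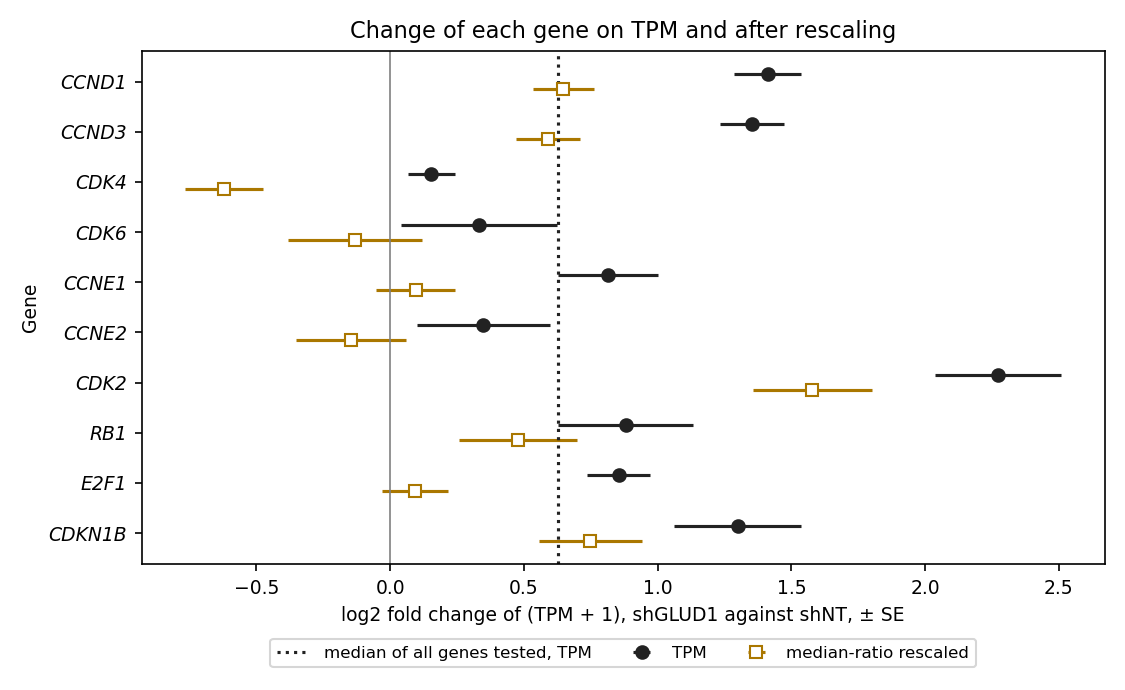
Log2 fold change of TPM + 1 in shGLUD1 against shNT for the 10 genes, with SE, on TPM (filled circles) and after median-ratio rescaling (open squares); the dotted line is the median of all genes tested on TPM, 0.63. CDK2 lies farthest right on both scales (2.27 and 1.58), and CDK4 is the lowest on both (0.15 and -0.62).

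Levels of the 10 genes can be ranked within a group, since TPM are per length. In shNT the order was CDK4, E2F1, CCND1, CCND3, CCNE1, CDK2, CCNE2, CDKN1B, CDK6 and RB1, and among neighbours only the values of CDKN1B and CDK6 overlapped. In shGLUD1 it was CDK4, CCND1, CCND3, E2F1, CDK2, CCNE1, CDKN1B, CCNE2, RB1 and CDK6. There CCNE2, RB1 and CDK6 overlapped, and CCND1 and CCND3 were barely apart. CDK2 passed CCNE1 and CDKN1B passed CCNE2 in that order. The summed TPM of all 10 was 553 and 554 in shNT and 780 in both shGLUD1 libraries.

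Because scaling between libraries cancels in a ratio of genes from the same library, 6 such ratios were computed, chosen after the values were seen. D cyclin TPM per TPM of CDK4 and CDK6 was 0.154 and 0.16 in shNT and 0.342 and 0.409 in shGLUD1, and the shGLUD1 mean was 2.39 times that of shNT. In contrast, E cyclin TPM per CDK2 TPM was 1.92 and 3.12 in shNT and 0.741 and 0.774 in shGLUD1, so E cyclin transcripts outnumbered those of CDK2 in shNT and were fewer in shGLUD1. CDK4 per CDK2 was 76.9 and 134.5 in shNT and 22.5 and 17.1 in shGLUD1.

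D cyclins per CIP/KIP inhibitors moved less, from 0.72 and 0.77 in shNT to 1.02 and 1.07 in shGLUD1. Activating E2F genes per pocket protein genes stood at 20.6 and 18.7 in shNT and at 8.74 and 6.66 in shGLUD1. RB1, RBL1 and RBL2, the divisor, had shNT means of 0.585, 0.385 and 0.95 TPM and passed the filter only or mainly through shGLUD1. That ratio thus rests on scarce transcripts, and no fall of it can be concluded from these values. CCND1 per CCND3 was 1.13 and 1.02 in shNT and 1.05 and 1.19 in shGLUD1, with overlap. The other 5 ratios did not overlap between groups, each with an exact permutation p of 0.333, the smallest this design allows (adjusted p = 0.400). These are ratios of transcripts, which say nothing of protein or kinase activity.

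**Figure D3:**
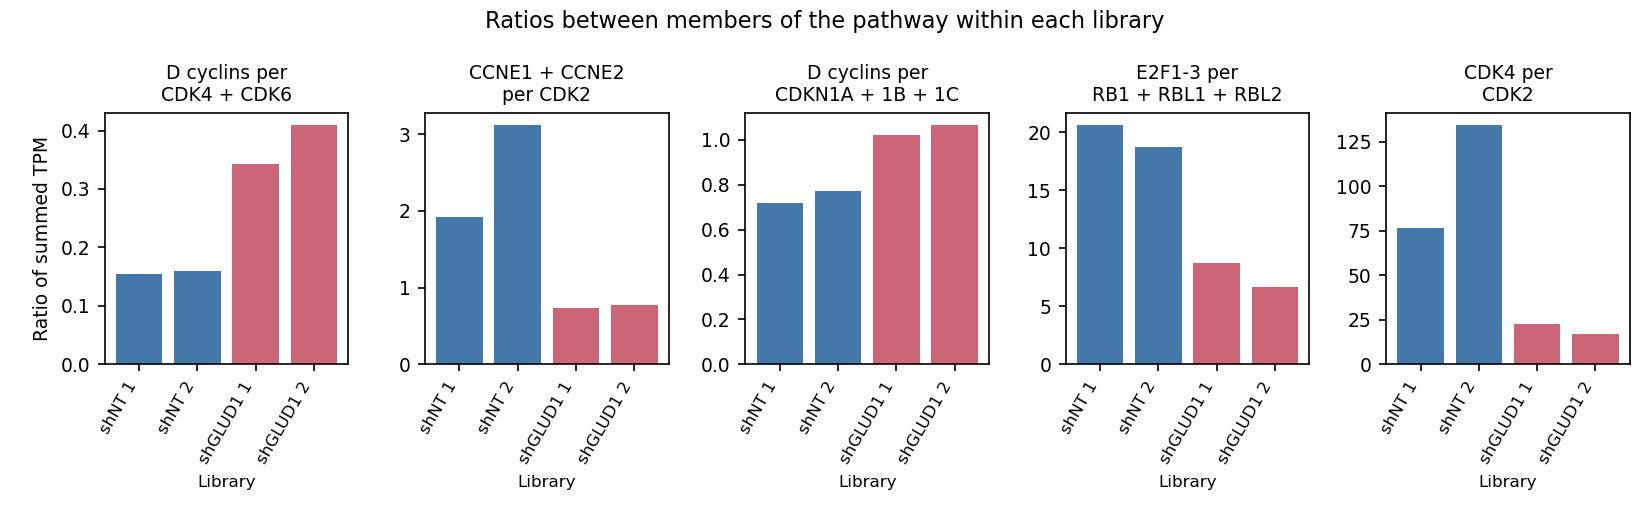
Ratios of summed TPM within each library (bars from 0; shNT blue, shGLUD1 red) for 5 pairs of gene groups. D cyclins per CDK4 and CDK6 are higher in both shGLUD1 libraries (0.342 and 0.409 against 0.154 and 0.16), while the ratios to CDK2 and to the pocket protein genes are lower. Each pocket protein gene had a shNT mean under 1 TPM.

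Other genes of the pathway were read as lists. Of 10 further cyclins, CDKs and activators, 8 passed the filter. On TPM 6 of them rose and none fell; rescaled, 3 were called higher and 1 lower. Over all genes 56.7% were higher on TPM, and 22.7% higher and 28.4% lower when rescaled. The list median was 0.93 on TPM and 0.17 rescaled. CCNA2, the S phase cyclin that also binds CDK2, was at 3.32 and 4 TPM with the control hairpin, against 16.9 and 25.2 TPM with shGLUD1 (log2 fold change 2.22, rescaled 1.54). CDC25A, the phosphatase that activates CDK2, rose by 1.46 (rescaled 0.85) and CDK1 by 1.27 (rescaled 0.53). CCNH, the cyclin of the CDK-activating kinase, rose by 0.94 on TPM, and its rescaled change of 0.19 missed the threshold.

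Among 6 other CDK inhibitor genes only CDKN1A and CDKN2D passed the filter, and both rose on TPM (median 1.15, rescaled 0.38). The shares of all genes tested called higher were 56.7% on TPM and 22.7% rescaled, and 2 genes are too few to read against them. Rescaled, CDKN2D passed and CDKN1A did not (0.13, limma adjusted p = 0.371). CDKN2D, the INK4 inhibitor p19 of CDK4 and CDK6, was at 26.0 and 24.8 TPM with the control hairpin, against 64.3 and 72.6 TPM with shGLUD1 (log2 fold change 1.40, rescaled 0.64, adjusted p of the latter 0.00228 by limma). The other INK4 genes, CDKN2A, CDKN2B and CDKN2C, were listed at 0 in all 4 libraries. CDKN2D was thus the only INK4 gene with a value above 0.

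Of 17 pocket protein, E2F, DP and MuvB genes, 14 passed the filter, 4 of them with a shNT mean under 1 TPM. There were 11 that rose and none that fell on TPM, and 5 higher with 2 lower when rescaled, beside 56.7% higher on TPM and 22.7% higher and 28.4% lower rescaled over all genes. The 4 scarce genes include RBL1, RBL2 and E2F2, which passed the filter only or mainly through shGLUD1. RBBP4, a histone-binding subunit of MuvB and other complexes, rose by 1.84 on the log2 scale (rescaled 1.11). The list's median change was 1.01 on TPM and 0.40 rescaled, beside 0.63 and -0.014 for all genes tested. At a mean of at least 5 TPM it was 0.66 beside 0.57, and with length and GC trends removed 0.14 beside 0.010. RBL1, RBL2 and E2F2 were among the genes called higher when rescaled. The 2 called lower were E2F7 (-0.91) and LIN37 (-0.47), neither of which passed on TPM.

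Of 11 genes of ubiquitin-dependent control, all passed the filter. TPM of 7 rose and of none fell, and the rescaled values gave 3 higher and 2 lower, with medians of 0.85 and 0.19. These counts are near the shares over all genes (56.7% higher on TPM, 22.7% higher and 28.4% lower rescaled). SKP2, the F-box protein that marks CDKN1B for degradation, was at 1.35 and 0.82 TPM with the control hairpin, against 9.93 and 13.6 TPM with shGLUD1. It rose by 2.61 on the log2 scale (rescaled 2.04), so the transcript of CDKN1B and that of the protein that degrades its product were both higher. CUL1, the scaffold of the same ligase, rose by 1.78 (rescaled 1.09), FBXO5, an inhibitor of the anaphase-promoting complex, by 1.74 (rescaled 1.13), and AMBRA1, which directs D cyclin degradation, by 1.10. The rescaled AMBRA1 value of 0.44 did not pass. The 2 genes called lower when rescaled were RBX1 (-0.66) and CDC34 (-0.88). SKP1 (0.28) and CKS1B (-0.011), both higher on TPM, did not pass rescaled. Relative to the typical gene, the genes of this list thus did not move together.

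The 20 classical E2F targets of the G1 to S transition were all tested, 1 with a shNT mean under 1 TPM, and all 20 rose on TPM. After rescaling 18 were higher and none lower, with a median of 1.47 on TPM and 0.85 rescaled. Over all genes 56.7% were higher on TPM and 22.7% when rescaled. With length and GC trends removed 15 of 19 targets passed, and rescaled with any 1 library left out 14 to 16 did. RRM2 rose most (log2 fold change 2.92, rescaled 2.19), followed by RRM1 (2.03, 1.30), UHRF1 (1.85, 1.24) and PCNA (1.83, 1.08). E2F1 itself and CCNE1, which are E2F targets too, did not pass when rescaled (0.092 and 0.095).

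Of 9 factors known to act on CCND1 or CDKN1B transcription, 7 were tested. On TPM 4 rose and 1 fell, whereas rescaled values of 4 were higher and of 3 lower (medians 1.06 and 0.58), beside 56.7% higher and 7.77% lower over all genes on TPM and 22.7% and 28.4% rescaled. FOXO3, counted among the 4, was at 0.59 and 0.69 TPM with the control hairpin, against 2.07 and 2.80 TPM with shGLUD1. It passed the filter only through shGLUD1, its change of 1.06 is the list's TPM median, and it is named after its values were seen. EGFR, a receptor upstream of CCND1, rose by 4.14 on the log2 scale (rescaled 3.38), CTNNB1, the gene of beta-catenin, by 1.80 (rescaled 1.05), and EPAS1 by 1.31 (rescaled 0.58). EPAS1 was at 8.86 and 8.96 TPM with the control hairpin, against 21.2 and 26.1 TPM with shGLUD1. FOS, a subunit of AP-1, fell by 3.44 on the log2 scale (rescaled -3.95). MYC had a log2 fold change of -0.13 that did not pass and a rescaled value of -0.83 that did (limma adjusted p = 0.00251). JUN likewise did not pass on TPM (-0.16) and was lower rescaled (-0.92, limma adjusted p = 0.000674). Both are named after their values were seen, and an effect of either on CDK4 or another of the 10 genes was not tested.

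**Figure D4:**
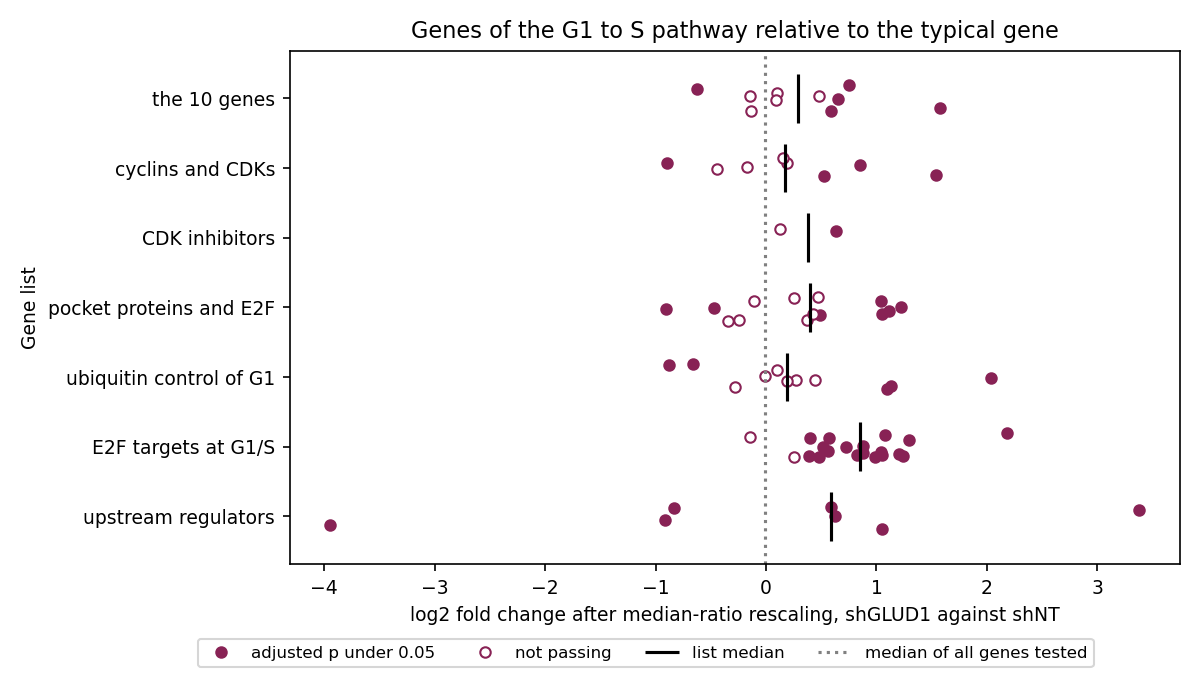
Log2 fold change after median-ratio rescaling of the 10 genes and of 6 lists of related genes, each point a gene that passed the filter (filled, adjusted p under 0.05), with the list median as a line and the median of all genes (-0.014) dotted. All but 1 of the E2F targets lie above that line, whereas the 10 genes spread from -0.62 (CDK4) to 1.58 (CDK2).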

How the data were processed

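Per the labels' protocols, total RNA was made into TruSeq V2 RNA-seq libraries. The authors deposited TPM per gene, scaled to 1000000 within each library. The submitters' processing notes list Bowtie 0.12.2, hg38 and mm8 without roles; the quantifier, its annotation, strand setting and filters were not given in the sources used here. Since TPM values keep no read totals, depth is unknown and no counting interval is given. Values were tested as log2(TPM + 1) for 12524 genes whose mean over the 4 libraries reached 1 TPM, using limma 3.58.1 in R 4.3.3 (variance trend, group only, Benjamini-Hochberg over all genes); fold changes understate low genes. Intervals are 95%. All 4 libraries entered the reported fit.

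Coordinates, overlaps and transcript lengths come from GENCODE 29 (GRCh38), and promoters from RefSeq. For RBL1 and CKS1B, listed in 2 rows each, the identifier carrying the current name was used. The 10 genes and all lists were chosen with earlier results of these data known. All 10 genes are named, plus GLUD1 and, per list, up to 4 passing genes with the largest change, and the paralogues in the shares. Of the lists, FOXO3, MYC, JUN, E2F7, LIN37, RBX1, CDC34, SKP1 and CKS1B were named outside that rule, after their values were seen. Alternatives were a pseudocount of 0.1 TPM, no filter, a mean of 5 TPM, median-ratio rescaling, quantile normalization, no variance trend, a replicate block, length and GC trends removed (97.9% of genes had a length), 87 cytosolic ribosomal protein genes left out, and each library left out. Rescaling combined with leaving out each library or with the block, and the 6 ratios, were added after seeing the data.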

Additional observations from a re-analysis of the deposited data

How the results depend on the processing

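The calls on CCND1, CCND3 and CDK2 held under every alternative run. Of the 10 genes, 7 changed, all higher, beside 56.7% of all genes tested called higher. After median-ratio rescaling 4 were higher and 1, CDK4, was lower, beside 22.7% and 28.4% of all genes. All genes higher numbered 7105, against 4676 at a mean of at least 5 TPM, 2846 rescaled, 2938 quantile-normalized and 2783 after removal of length and GC trends. CDK4 (0.15) was -0.62 rescaled, -0.30 with length and GC trends removed and -0.037 without ribosomal protein genes. CDK6 was -0.13 rescaled, -0.64 with length and GC trends removed and -0.32 quantile-normalized. CCNE2 was -0.15, -0.32 and -0.30 in the same order. CCNE1 no longer passed in these 3 settings (0.095, 0.35 and 0.12), nor did RB1 (0.48, 0.076 and 0.29), and E2F1 did not pass rescaled (0.092). For none of these was the cause tested.

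Among the lists, rescaling left 3 of 8 further cyclins and CDKs higher and 1 lower, and 1 of 2 CDK inhibitors higher. Of 14 pocket protein and E2F genes 7 changed, 5 higher and 2 lower. Of 11 ubiquitin genes, 3 were higher and 2 lower. Over all genes 22.7% were higher and 28.4% lower when rescaled. The pocket protein and E2F list had 5 changed and 5 higher at a mean of 5 TPM, and 6 and 5 quantile-normalized. After removal of length and GC trends it had 5 and 4, and 4 ubiquitin genes were higher. Over all genes, 4676 of 7833 were higher at a mean of 5 TPM, 23.5% quantile-normalized and 22.7% with these trends removed. Fewer genes are tested at a mean of 5 TPM, where CDK6, CCNE2, RB1 and CDKN1B had no value. With 1 TPM added to every gene, the share difference was 4.62 points for CCNE1, -1.80 for E2F1 and 0.78 for CDKN1B.

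Leaving out each library in turn gave, on TPM and then rescaled, 0.10 to 0.20 and -0.76 to -0.45 for CDK4, -0.037 to 0.70 and -0.37 to 0.15 for CDK6, 0.64 to 0.98 and 0.021 to 0.18 for CCNE1, and 0.21 to 0.49 and -0.19 to -0.070 for CCNE2. RB1 gave 0.78 to 0.99 and 0.38 to 0.61, with no value without shGLUD1 replicate 2, E2F1 0.83 to 0.87 and 0.0091 to 0.21, and CDKN1B 1.25 to 1.35 and 0.71 to 0.79. GLUD1 (-0.11) was 0.15 without shGLUD1 replicate 1 and -0.37 without shGLUD1 replicate 2, and passed as lower rescaled (-0.84), quantile-normalized (-0.75) and with length and GC trends removed (-0.89). The CCND1 share difference ranged from -0.53 to 2.49 points and that of CDK4 from -0.27 to 0.048, of RB1 from -13.6 to -6.45 and of CCNE1 from 1.63 to 3.52. An arm with 1 library was assumed to vary like the other.

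Same-numbered libraries did not deviate together (r = 0.039 across genes), and no label says that a number marks a shared culture or day, so the numbers were not used to pair libraries. With the replicate number as a block, 8456 genes changed in place of 8078, and 7 of the 10 genes did, with no call changed. In this balanced design a block cannot move a fold change, and only p-values could differ. Combined with rescaling, CDK4, CDK6, CCNE1, CCNE2, RB1 and E2F1 therefore kept their rescaled values (-0.62, -0.13, 0.095, -0.15, 0.48 and 0.092). Depth is unknown, so values near 1 TPM carry an unstated counting error.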
